A study of Drosophila melanogaster with 2 samples.

Results

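The genes described here are 40 of the 13968 protein-coding genes of Drosophila melanogaster: 29 named proneural, Notch pathway and neuroblast genes, and the 11 genes whose symbol starts with E(spl). Each was examined for peaks of Taf1, the largest TFIID subunit, in peak lists from chromatin immunoprecipitation with sequencing (ChIP-seq). The strain carried an insertion that expressed a Taf1-eGFP fusion protein, and chromatin sonicated to 200-800 bp was recovered with an antibody against GFP. Whole embryos aged 0-24 h were used, as a single group of 2 biological replicates, so genes were compared with other genes and the replicates with each other. A gene had a promoter summit where the highest point of a peak lay within 500 bp of any of its annotated start sites, and a gene body summit where it lay farther away but within the gene. The main list was the larger thresholded list of the pooled replicates, with 2658 peaks on chromosome arms. The files give no read counts, so sequencing depth is unknown. Intervals are exact 95% Clopper-Pearson intervals over genes, and they cover counting error only.

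As background, proneural genes encode basic helix-loop-helix activators that give clusters of ectodermal cells the potential to become neural precursors. Within a cluster, Notch signalling between neighbours restricts that potential: the ligand Delta activates Notch, whose cleaved intracellular part joins Su(H) and mam to switch on E(spl) genes, and E(spl) repressors hold proneural genes down. The selected neuroblasts then divide asymmetrically, passing fate determinants such as numb, pros and brat to 1 daughter cell. These events take place in a minority of embryonic cells at particular stages, and the embryos here were whole and mixed in age. Binding in fewer cells and weaker binding per cell therefore cannot be told apart.

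Few of these genes had a Taf1 peak at the promoter. Of the 40 genes, 7 had a promoter summit in the main list (17.5%, interval 7.34 to 32.8), beside 13.2% of all protein-coding genes. These were elav, numb, E(spl)m3-HLH, mam, brat, kuz and N. No proneural gene and no neuroblast transcription factor was among them. With gene body summits included, neur was added, which gave 8 genes (20.0%, interval 9.05 to 35.6) beside 16.8% of all genes. Both intervals include the share of all genes, so the count was not distinguishable from that background.

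The smaller lists gave counts near their own backgrounds. In the conservative pooled list 6 genes had a promoter summit (15.0%), beside 11.4% of all genes, and kuz was the one lost. The thresholded list of replicate 1 had 4 (10%), beside 7.23%, and that of replicate 2 had 4 (10%), beside 10.6%. The genes differed between the replicates: N, neur, elav and numb in replicate 1, and E(spl)m3-HLH, mam, elav and numb in replicate 2. Only elav and numb were in both (5.0%), beside 5.99% of all genes.

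The authors also deposited ranked lists with no threshold, which hold many weak peaks. There, 25 of the 40 genes had a promoter summit in the pooled list (62.5%), beside 56.6% of all genes, and 23 in the conservative ranked list (57.5%), beside 51.4%. Replicate 1 had 21 (52.5%), beside 49.7%, and replicate 2 had 31 (77.5%), beside 64.2%. In both replicates together there were 19 (47.5%, interval 31.5 to 63.9), beside 37.1%. These are counts of genes, so the summits in the 2 lists need not be the same peak. For promoters outside the main list, the signals given below are of the strongest promoter summit in each list. The ranked lists differ in length, with 33381 peaks on arms for replicate 1 and 94109 for replicate 2, and in their lowest signal, at 11.3 and 2.0. Replicate 2 therefore lists summits weaker than any in replicate 1.

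**Figure D1:**
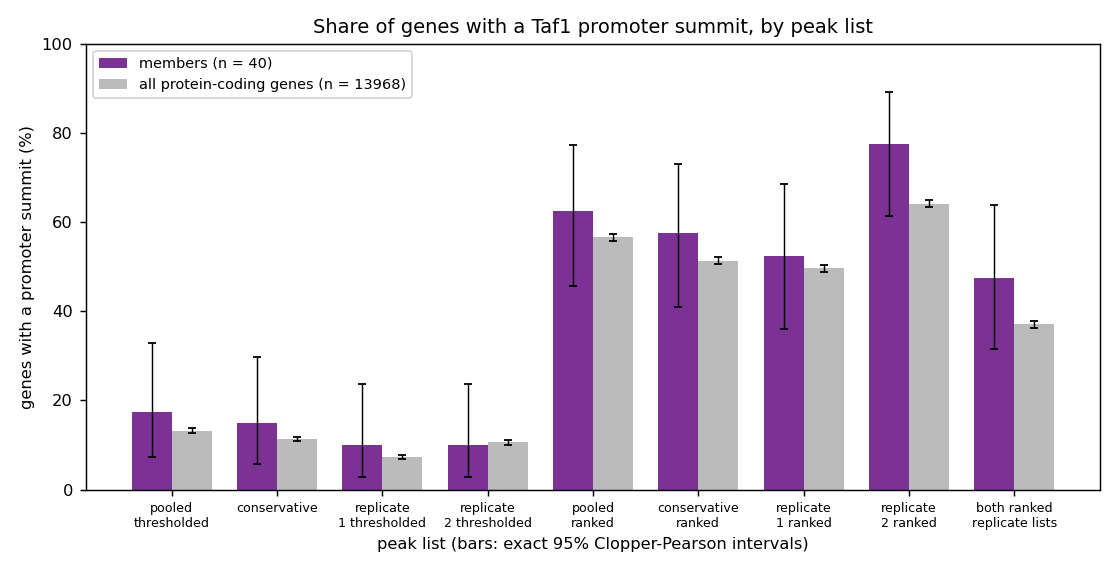
Share of genes (y axis, %) with a Taf1 promoter summit in each peak list (x axis), for the 40 member genes and for all 13968 protein-coding genes, with exact 95% Clopper-Pearson intervals as error bars. Members had 17.5% against 13.2% in the pooled thresholded list and 47.5% against 37.1% in both ranked replicate lists; in the replicate 2 thresholded list they had 10% against 10.6%.

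The sequences under 5 summits are shown: those of elav, numb and the brat intron, which include the highest signals among these genes, and that of E(spl)m3-HLH, the one E(spl) gene with a thresholded promoter summit. Each is 151 bases of dm6 centred on a summit and read from the RefSeq release 6 assembly, with capitals marking TATAAA or GAGAG on either strand (CTCTC is GAGAG on the other strand). The elav promoter summit is chrX:523398-523548 and the elav intron summit chrX:522552-522702, both on the minus strand. The numb summit is chr2L:9449554-9449704, the brat intron summit chr2L:19165072-19165222 and the E(spl)m3-HLH summit chr3R:26021285-26021435, all on the plus strand.
elav promoter summit: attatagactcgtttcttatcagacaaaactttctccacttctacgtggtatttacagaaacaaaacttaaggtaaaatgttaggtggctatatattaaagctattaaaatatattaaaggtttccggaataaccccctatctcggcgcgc
elav intron summit: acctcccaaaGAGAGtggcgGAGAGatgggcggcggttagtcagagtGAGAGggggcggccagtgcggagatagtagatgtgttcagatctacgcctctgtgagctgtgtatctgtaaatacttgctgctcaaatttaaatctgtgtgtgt
numb promoter summit: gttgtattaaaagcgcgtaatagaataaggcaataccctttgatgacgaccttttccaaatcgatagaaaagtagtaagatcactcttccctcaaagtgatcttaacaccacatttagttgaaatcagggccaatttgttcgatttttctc
brat intron summit: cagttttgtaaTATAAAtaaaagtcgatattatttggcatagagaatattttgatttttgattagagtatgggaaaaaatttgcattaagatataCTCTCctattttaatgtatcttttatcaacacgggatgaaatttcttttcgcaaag
E(spl)m3-HLH promoter summit: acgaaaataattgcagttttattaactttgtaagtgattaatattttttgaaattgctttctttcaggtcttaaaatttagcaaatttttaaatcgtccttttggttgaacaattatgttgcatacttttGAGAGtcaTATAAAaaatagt
The elav intron window is 51.0% G and C and holds 3 copies of GAGAG, the core of the site bound by GAGA factor. The others are richer in A and T, with 34.4% G and C at the elav promoter, 36.4% at numb, 25.8% in the brat intron and 23.8% at E(spl)m3-HLH. The windows at the elav promoter and at numb hold neither TATAAA nor GAGAG.

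The strongest promoter signal among the 40 genes was at elav, which encodes a neuronal RNA-binding protein used as a marker of neurons. Its promoter summit, at chrX:523379-523593 and 247 bp upstream of the start site, had a signal of 380.4 in the authors' units and ranked 106 of 2658. The signal was 182.2 in replicate 1 and 203.5 in replicate 2. Among the 7908 protein-coding genes with a promoter summit in the pooled ranked list, elav stood at percentile 98.8. A second elav summit lay in an intron, 599 bp downstream of the start, with a pooled signal of 183.1 and rank 402. Here replicate 1 was the higher, at 105.3, with 76.3 in replicate 2. A long noncoding RNA, lncRNA:enrr, is annotated from the same start site, so these summits belong to both genes.

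The asymmetric division genes split into strong and weak cases. At numb, whose protein blocks Notch signalling in the daughter cell that inherits it, the summit had a pooled signal of 264.4 and ranked 200. It measured 104.4 in replicate 1 and 165.8 in replicate 2, and it was in the thresholded list of each. It lay 201 bp upstream of the internal start site at 9449830, inside an intron and 12160 bp from the first start site. At the first start the pooled ranked list held a summit of 44.7 only.

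A total of 3 summits fell at brat, which encodes a translational repressor that limits growth in the differentiating daughter cell. The promoter summit, at chr2L:19133530-19133845 and 128 bp upstream of the start, had a signal of 80.2, with 37.0 in replicate 1 and 37.7 in replicate 2, and was in neither replicate's thresholded list. The start site of Polr1D, a subunit gene of RNA polymerases, lies 205 bp from that summit on the other strand. The strongest brat summit was intronic, at chr2L:19165100-19165243, with a pooled signal of 283.5 and rank 175. It measured 145.7 in replicate 1 and 141.9 in replicate 2. It lay 720 bp upstream of the internal start site at 19165867, outside the promoter window. Another intronic summit, 7256 bp into the gene, had a signal of 102.8. At brat the intron thus carried more signal than the annotated promoter.

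The other asymmetric division genes were absent from the thresholded list. In the pooled ranked list insc and mira lay above the median of 33.0 over the 7908 genes with a promoter summit, and pros lay below it. For insc, which orients the division spindle, the pooled ranked promoter signal was 38.6, with no peak in replicate 1 and 11.0 in replicate 2. For mira, the adaptor that carries pros and brat proteins, it was 35.6, with 21.0 in replicate 1 and 12.6 in replicate 2. The value for pros, a transcription factor that ends neuroblast-like division, was 21.7, with no peak in replicate 1 and 18.6 in replicate 2.

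Of Notch and its ligands, the receptor gene alone had thresholded summits. N, the receptor gene, had a promoter summit at chrX:3134393-3134708, 319 bp upstream of the start, with a pooled signal of 65.5 and rank 2046. It measured 39.7 in replicate 1 and 30.9 in replicate 2, and was in the thresholded list of replicate 1 only. An intronic summit at chrX:3162324-3162639, 27612 bp downstream of the start, was higher, with 120.4 in the pool, 68.5 in replicate 1 and 55.6 in replicate 2. This intronic peak was in the thresholded list of both replicates. The ligand gene Dl, annotated as Delta, had no promoter summit in any ranked list, and the nearest thresholded summit was 77047 bp from its start. The other ligand gene, Ser, had a promoter summit in replicate 2 alone, at 11.3.

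Of the genes that process ligand or receptor, kuz encodes the metalloprotease that sheds the Notch extracellular domain. Its promoter summit, 54 bp downstream of the start in an untranslated exon, had a pooled signal of 71.6, and an overlapping peak had 5.5. Replicate 1 held 33.3 there and replicate 2 held no peak, and neither the conservative list nor either replicate's thresholded list held it. For neur, the ubiquitin ligase that activates Delta, 2 intronic summits passed the threshold, with pooled signals of 136.2 and 81.3. The first lay 1695 bp downstream of a neur start and measured 69.0 in replicate 1 and 63.7 in replicate 2. The second lay 101 bp from the start of hyx, a neighbouring gene on the other strand, and 610 bp from that of neur.

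The threshold itself separated genes with similar signal. In the pooled ranked list the −log10 of the global irreproducible discovery rate (IDR) was 2.36 at N, just inside the cutoff of 0.01, which is 2 on this scale. It was 1.98 at the neur promoter, just outside, although the pooled signal there was 70.1 against 65.5 at N. The neur promoter peak was uneven between replicates, at 55.7 in replicate 1 and 16.2 in replicate 2. Next below were emc, with 1.87 and a signal of 45.2, and bib, with 1.78 and 54.0. The bib gene encodes a channel-family membrane protein of the neurogenic class, and its promoter summit measured 28.1 in replicate 1 and 29.0 in replicate 2.

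Among the nuclear Notch factors, mam, the coactivator gene, had 3 thresholded summits. That at an internal start site, chr2R:14008799-14009114 and 242 bp upstream of it, had a pooled signal of 86.5, with 48.3 in replicate 1 and 33.2 in replicate 2. The other 2 were intronic, close together and stronger, at 144.5 and 188.5. Of these, the higher measured 84.7 in replicate 1 and 99.0 in replicate 2. Su(H), which encodes the DNA-binding protein of the complex, reached 62.2 in the pooled ranked list, 18 bp upstream of its start, with 26.3 in replicate 1 and 33.7 in replicate 2. Its −log10 global IDR of 0.96 left it out of the thresholded list. The gene for the antagonist of Su(H), H, had no promoter summit in any ranked list.

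**Figure D2:**
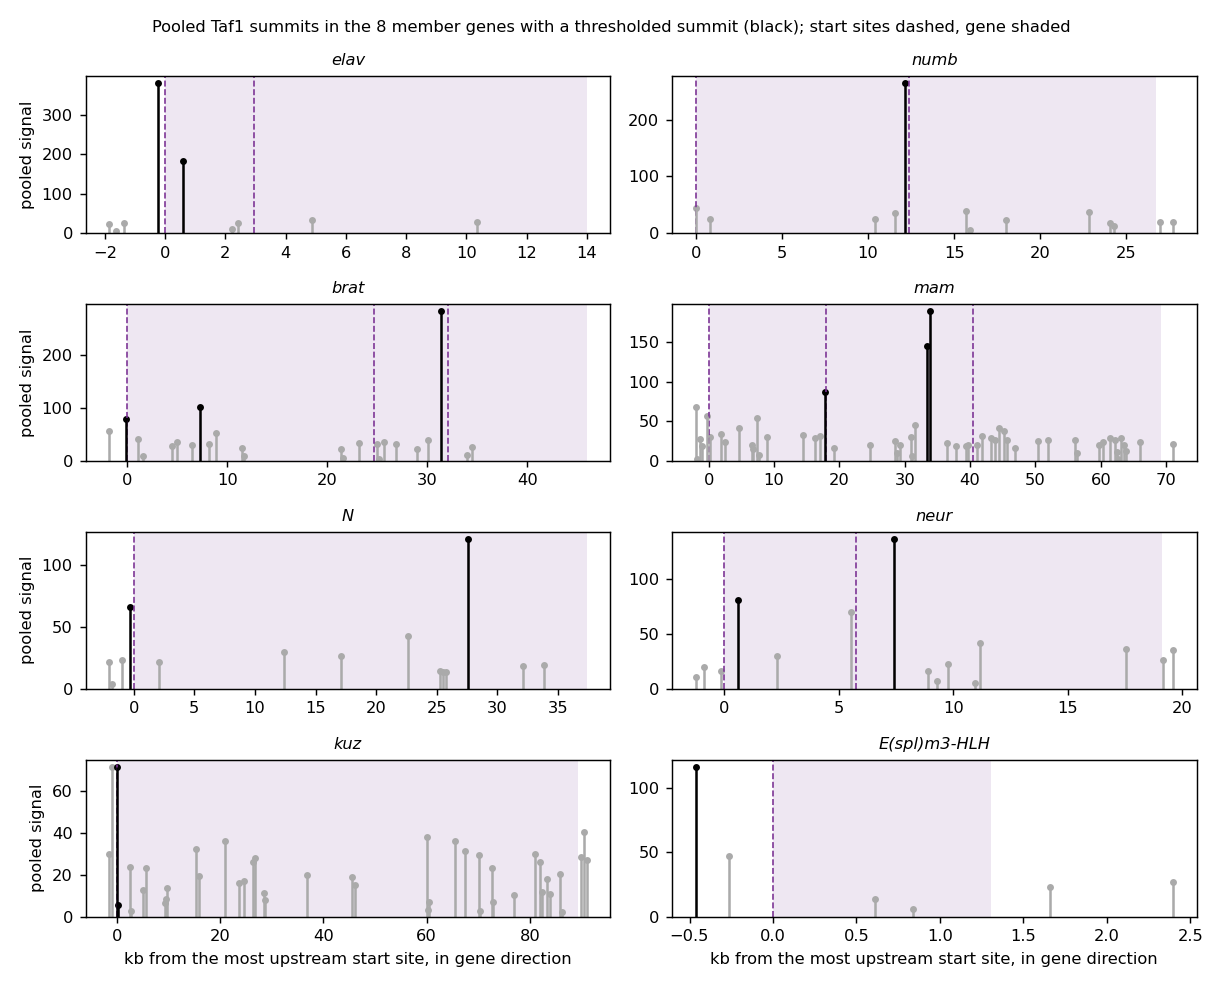
Pooled ranked summits (y axis, authors' signal) across the 8 member genes with a thresholded summit, by distance from the most upstream start site (x axis, kb). Black marks thresholded summits, grey marks the others, dashed lines are start sites and shading is the gene. In brat, mam and N an intronic summit was higher than the promoter summit, at 283.5, 188.5 and 120.4.

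Several of the stronger summits thus lay in introns. Beyond the promoter windows, 5 of the 40 genes (12.5%) held 8 thresholded summits, or 1.59 per 100 kb of gene. Over all protein-coding genes 5.0% held such summits, at 1.08 per 100 kb. Members with a promoter summit were long, with a median length of 37352 bp (7 genes), and those without were short, with a median of 1223 bp (33 genes). Over all genes the medians were 3104 bp with and 2047 bp without. Longer genes have more room for summits and more start sites, and the part of length in these counts was not tested.

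The proneural genes had no thresholded summit at promoter or gene body, 0 of 6 beside 16.8% of all genes, a count too small to be told from that share. The gene ato, which founds the eye photoreceptors and chordotonal organs, was the only one with a promoter summit in both ranked replicate lists, at 23.7 in replicate 1 and 17.4 in replicate 2, and with 31.6 in the pool. The other 5 were weaker or missing. For cato, an ato relative of the sensory lineages, replicate 2 alone had a summit, at 15.9. The achaete-scute gene l(1)sc, the main neuroblast proneural gene, also had one in replicate 2 alone, at 8.2, and sc had one in the pooled list alone, at 12.7. For ac and amos, proneural genes of bristles and of olfactory organs, there was none in any ranked list.

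Of the 6 proneural genes, 3 lie in the achaete-scute complex. Over its 93.1 kb, from ac to ase on chromosome X (370031 to 463176), there were 0 thresholded summits, beside 1.93 per 100 kb over the arms, a rate at which few would fall in a stretch of this length. The pooled ranked list held 25 summits there, or 26.8 per 100 kb beside 43.8, and the highest had a signal of 39.0. From ac the nearest thresholded summit was 123963 bp away, and from ase 33247 bp. That complex is a single locus, so its 4 genes are not independent observations.

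In the pooled ranked list the partners of the proneural proteins stood higher than the proneural genes. For da, the shared dimer partner, the pooled ranked signal was 36.5, with 25.1 in replicate 1 and no promoter peak in replicate 2. For emc, which binds proneural proteins and blocks their DNA binding, it was 45.2, with 24.0 in replicate 1 and 21.1 in replicate 2. Neither passed the threshold. The Bearded family genes Brd and Tom, whose products inhibit neur, had no promoter summit in any list, and the 3.85 kb that holds both had 0 summits in all 8 lists. Over the arms there were 1.93 summits per 100 kb in the main list and 43.8 in the pooled ranked list. At these rates so short a stretch would hold few summits or none. Promoter summits were found at 13.2% and 56.6% of all genes in those lists, and 2 genes are too few to be told from these shares.

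The neuroblast transcription factor genes had no thresholded summit either, 0 of 4, again too few to be told from the 16.8% of all genes. For esg, a Snail family gene, the ranked promoter signal was 20.2 in replicate 1 and 20.3 in replicate 2, and 36.8 in the pool. The replicate 1 summit lay 419 bp downstream of the start and the replicate 2 summit 3 bp upstream, so they were different peaks. The esg relative wor had 12.5 in replicate 2 and no promoter peak in replicate 1 or the main pooled ranked list, and 10.7 in the conservative ranked list. For dpn, which encodes a repressor that maintains neuroblasts, replicate 2 had 17.0, the pool 23.3 and replicate 1 no peak. The fourth, ase, a proneural-type gene of neural precursors in the achaete-scute complex, had 11.1 in replicate 2 alone. For comparison, the median over genes with a promoter summit was 22.3 in the replicate 1 ranked list (6940 genes). It was 15.2 in the replicate 2 ranked list (8961 genes) and 33.0 in the main pooled ranked list (7908 genes).

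**Figure D3:**
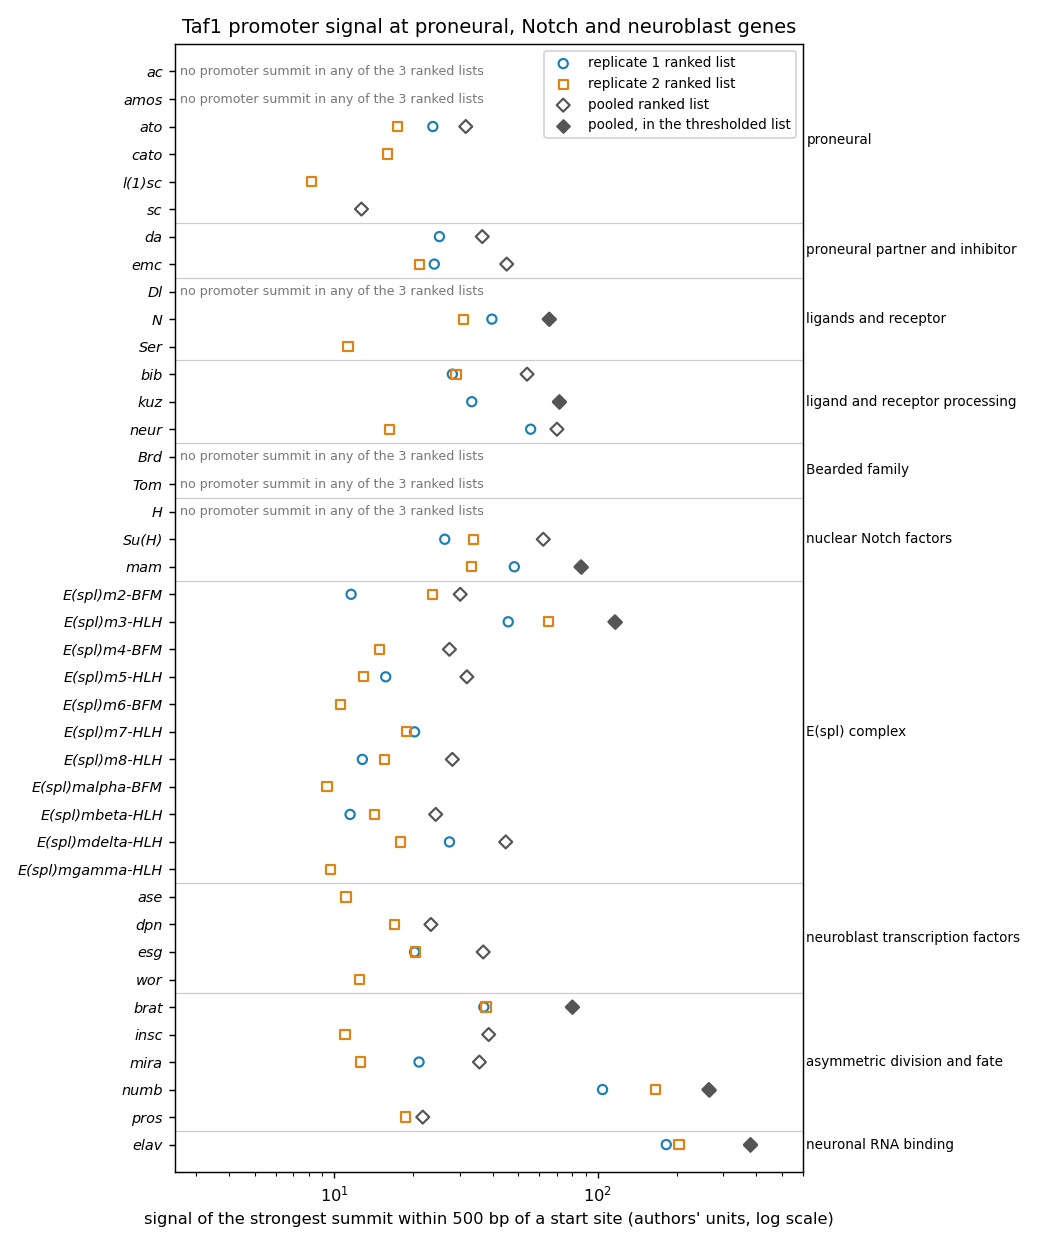
Signal of the strongest promoter summit (x axis, authors' units, log scale) of each member gene (y axis, grouped by role) in the ranked lists of replicate 1, replicate 2 and the pool; filled diamonds are in the pooled thresholded list. The proneural and neuroblast transcription factor genes sit at 36.8 or below, and elav and numb stand highest, at 380.4 and 264.4 in the pool.

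Of the 11 E(spl) genes, which lie in a row on chromosome arm 3R from 25997621 to 26041008, 1 had a promoter summit in the main list (9.09%, interval 0.23 to 41.3), beside 13.2% of all genes, a share inside that interval. Of the 11, 7 encode helix-loop-helix repressors (names ending in HLH) and 4 are Bearded family genes (ending in BFM). The exception was E(spl)m3-HLH, with a summit at chr3R:26021202-26021517, 463 bp upstream of the start, and a pooled signal of 116.3, rank 879. It measured 45.8 in replicate 1 and 64.9 in replicate 2 and was in the thresholded list of replicate 2 only. The start of lncRNA:CR43644, on the other strand, is nearer to that summit, at 284 bp, and with a 250 bp window no E(spl) gene had a promoter summit.

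At low threshold Taf1 summits were spread over the complex. All 11 E(spl) genes had a promoter summit in the replicate 2 ranked list, beside 64.2% of all genes, and 7 in that of replicate 1, beside 49.7%. The 7 were thus in both lists, beside 37.1% of all genes. Neighbours in a complex are not independent, so these shares were not compared further. Apart from E(spl)m3-HLH, replicate 2 signals ran from 9.4 at E(spl)malpha-BFM to 23.7 at E(spl)m2-BFM. In replicate 1 they ran from 11.5 at E(spl)mbeta-HLH to 27.4 at E(spl)mdelta-HLH over the other 6 genes with a summit. For E(spl)m8-HLH the values were 12.8 in replicate 1 and 15.5 in replicate 2, and for E(spl)m5-HLH 15.7 and 12.9. E(spl)m7-HLH had 20.2 in replicate 1 and 18.8 in replicate 2. In the pool, the other 6 E(spl) genes with a promoter summit ran from 24.3 at E(spl)mbeta-HLH to 44.8 at E(spl)mdelta-HLH, all under the 65.5 at N. Counted from the E(spl)mdelta-HLH start, that gene's pooled summit lay at -0.428 kb. The start of CG43116, on the other strand, lies at -0.625 kb and is nearer to that summit.

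The strongest peak of the E(spl) complex lay outside the promoter windows of its E(spl) genes, and the next was the E(spl)m3-HLH promoter summit. The 43.4 kb interval held 3 thresholded summits, or 6.91 per 100 kb beside 1.93 over the arms, and 30 pooled ranked summits, or 69.1 beside 43.8. The highest, at 157.5, lay 11.486 kb from the start of E(spl)mdelta-HLH and 1786 bp from the start of E(spl)malpha-BFM. The weakest, at 51.3, lay near the start of Kaz-m1, a gene inside the complex that the symbol rule does not take. Just beyond the last E(spl) gene lay summits of 90.3 and 245.1, the second at the promoter of gro, which encodes the corepressor that E(spl) proteins recruit.

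**Figure D4:**
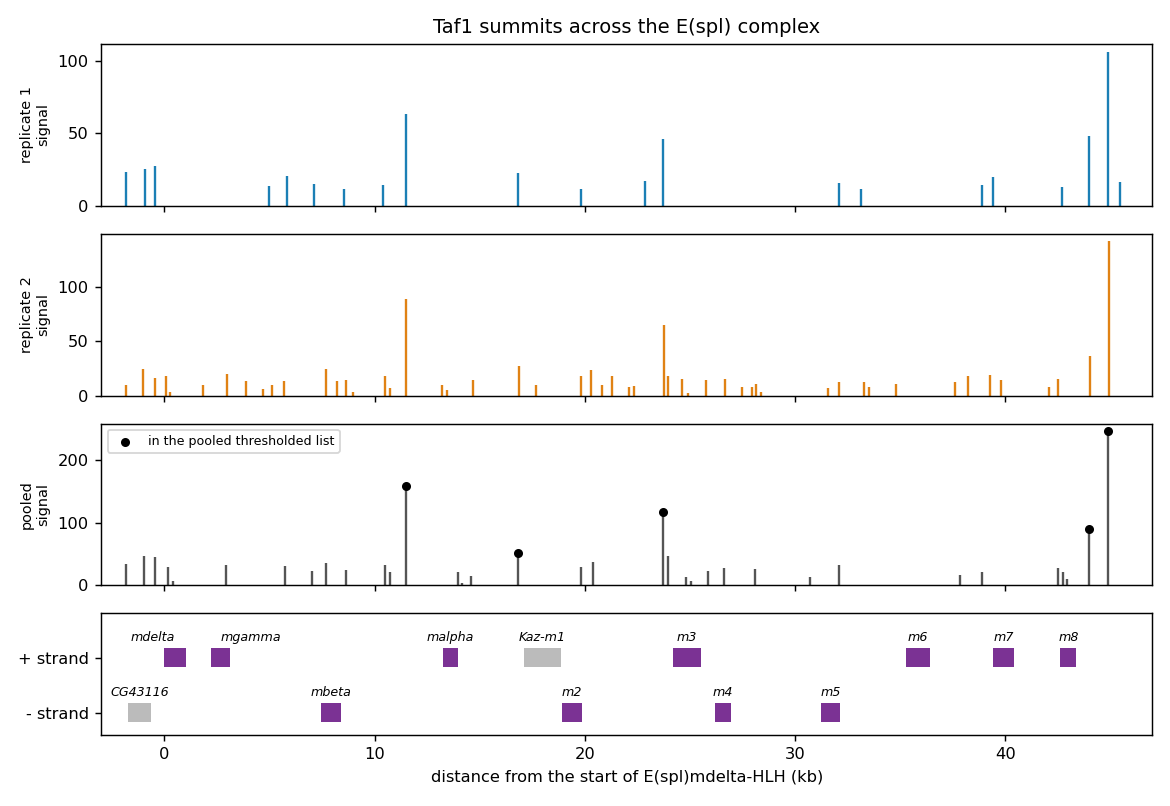
Ranked Taf1 summits (y axis, authors' signal) across the E(spl) complex in replicate 1, replicate 2 and the pool, by distance from the start of E(spl)mdelta-HLH (x axis, kb), above the genes on each strand (member genes in purple). Thresholded summits of 157.5, 51.3 and 116.3 lie inside the complex, and those of 90.3 and 245.1 lie beyond E(spl)m8-HLH.

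Most E(spl) promoters held TATAAA, the letters of the TATA box. TATAAA on the gene's strand, between 70 bases before and 10 after the most upstream start site, was found at 9 of 11 E(spl) genes (81.8%) and at 7 of the other 29 members (24.1%), beside 13.1% of all promoters. The 80 bases at 5 of the E(spl) genes are shown for this shared element, on the gene's strand in dm6 from the RefSeq assembly, with TATAAA in capitals and the start site after base 70. E(spl)mbeta-HLH is chr3R:26006014-26006093 and E(spl)m5-HLH chr3R:26029726-26029805, both on the minus strand. On the plus strand are E(spl)malpha-BFM at chr3R:26010823-26010902, E(spl)m3-HLH at chr3R:26021753-26021832 and E(spl)m7-HLH at chr3R:26036968-26037047.
E(spl)mbeta-HLH: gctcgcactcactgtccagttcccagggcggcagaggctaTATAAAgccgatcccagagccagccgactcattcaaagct
E(spl)m5-HLH: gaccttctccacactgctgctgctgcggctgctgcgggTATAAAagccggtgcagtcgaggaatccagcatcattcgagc
E(spl)malpha-BFM: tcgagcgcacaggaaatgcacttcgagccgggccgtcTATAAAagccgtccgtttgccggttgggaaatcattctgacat
E(spl)m3-HLH: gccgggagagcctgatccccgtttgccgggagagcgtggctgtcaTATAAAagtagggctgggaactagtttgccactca
E(spl)m7-HLH: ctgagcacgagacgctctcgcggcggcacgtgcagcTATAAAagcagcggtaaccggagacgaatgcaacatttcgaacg
Counted with the start site as 0, the first T lies at -30 in E(spl)mbeta-HLH, -32 in E(spl)m5-HLH, -33 in E(spl)malpha-BFM, -25 in E(spl)m3-HLH and -34 in E(spl)m7-HLH. The first T lies farther upstream in E(spl)m8-HLH (-43), amos (-44) and neur (-59). In the rest of the members with TATAAA it lies between -24 and -34. The TATA box is the core element bound by TBP, the partner of Taf1 in TFIID. Promoter summits were found at 1 of the 16 members with TATAAA there (6.25%) and at 6 of the 24 without (25%). Over all genes the shares were 5.81% with and 14.4% without. In these shares TATAAA was searched at the most upstream start only, whereas a summit counted at any start. Among the 6 members without TATAAA, numb and mam had their summit at an internal start, which was not searched. Outside the E(spl) complex TATAAA was at esg, wor, amos, emc, ato, neur and ac, and none of those 7 had a thresholded promoter summit.

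Promoters from 250 bases before to 50 after the most upstream start were also searched on both strands for other motifs. GAGAG was in 25 of the 40 (62.5%), beside 29.7% of all promoters, and within 60 bases before to 40 after the start in 8 (20.0%), beside 11.9%. The Su(H)-type sites GTGGGAA and GTGAGAA were in 6 (15.0%), beside 6.48%: kuz, ac, sc, E(spl)m4-BFM, E(spl)m5-HLH and E(spl)m8-HLH. E(spl)m8-HLH had 2, and its promoter is printed for them: chr3R:26039990-26040249, plus strand, with Su(H)-type sites (TTCCCAC is GTGGGAA on the other strand) and TATAAA in capitals.
E(spl)m8-HLH promoter: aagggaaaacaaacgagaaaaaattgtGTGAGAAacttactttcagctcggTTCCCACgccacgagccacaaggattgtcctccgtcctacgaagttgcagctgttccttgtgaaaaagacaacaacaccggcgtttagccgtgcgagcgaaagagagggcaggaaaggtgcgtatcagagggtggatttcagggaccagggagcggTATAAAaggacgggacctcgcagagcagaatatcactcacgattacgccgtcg
The Taf1 signal at this promoter was among the weak ones, at 28.1 in the pool. The E-box CANNTG, the class of site that proneural proteins bind, was in 29 of 40 (72.5%), beside 77.2%, and its form CAGCTG in 4 (10%), beside 17.6%. The DRE, TATCGATA, was in Su(H) and brat only (5.0%), beside 9.36%. TATAAA anywhere in this longer window was in 21 (52.5%), beside 45.8%. Ohler motif 1 was in 2 (5.0%), beside 4.49%, motif 6 in 0, beside 2.23%, and motif 7 in 4 (10%), beside 9.28%. A match is a run of letters and not a measured site, and motifs can overlap.

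Around the 16 thresholded summits of these genes, within 100 bases on each side, GAGAG was at 4 (25%), beside 22.1% of all 2658 summits. Su(H)-type letters were at 2, the kuz promoter summit and the neur summit next to hyx (12.5%), beside 4.97%. CANNTG was at 9 (56.2%), beside 58.1%. The DRE and Ohler motifs 1, 6 and 7 were at 0 of 16, and over all summits they were at 3.91%, 1.02%, 0.451% and 5.57%. The median G and C content of member windows was 36.1%, beside 34.8% of all.

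Replicate signals could be compared at these summits apart from those of the kuz promoter, which had no replicate 2 peak. The summits had passed an IDR threshold, which selects reproducible peaks, and a peak in both ranked lists was required. Some agreement is therefore built in, here and over all pooled peaks. At the 14 summits with a peak in both ranked lists, the log2 ratio of replicate 2 to replicate 1 ran from -0.54 at the mam promoter to 0.67 at numb. Over 2505 pooled peaks in both lists its median was 0.16 and its SD 0.63, and 80% of peaks lay between -0.64 and 0.89. All 14 member ratios lay between those bounds.

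**Figure D5:**
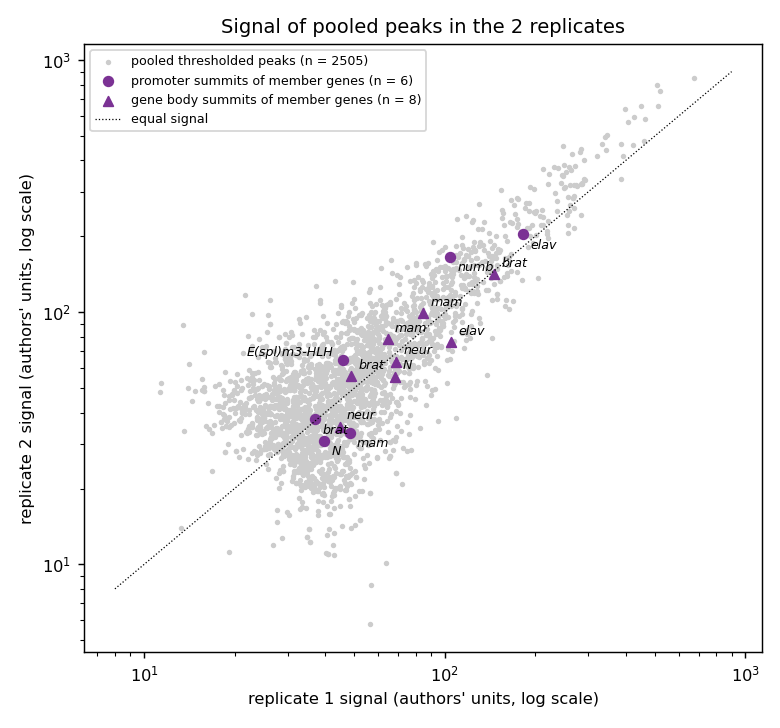
Signal of pooled thresholded peaks in replicate 1 (x axis) and replicate 2 (y axis), authors' units on log scales, for 2505 peaks (grey) and for 14 member summits (purple; circles promoter, triangles gene body). The member summits lie inside the grey cloud, with elav highest at 182.2 in replicate 1 and 203.5 in replicate 2.

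Many members were genes with a single exon, 21 of the 40 (52.5%), beside 13.0% of all, and promoter summits were found at 5.14% of the single-exon genes of the genome. An opposite-strand start within 1000 bp upstream, the head-to-head arrangement, was present at 6 members (15.0%), beside 36.2% of all genes. Of the 7 members with a promoter summit 3 were head-to-head (42.9%), namely kuz, brat and mam, beside 66.4% of all genes with a promoter summit. A gene was counted as head-to-head if any of its starts was. The mam promoter summit lay at an internal start, 2951 bp from the nearest start of another gene, so its pair is at a different start. Whether these structural differences bear on the counts of members was not tested.

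Other genes of the pathway and of neuroblast division, 59 in a list beyond the members, had shares of the same order in the main list. Promoter summits were found at 11 (18.6%, interval 9.69 to 30.9), beside 13.2% of all genes, and summits in promoter or gene body at 15 (25.4%, interval 15.0 to 38.4), beside 16.8%. In the pooled ranked list 48 had a promoter summit (81.4%, interval 69.1 to 90.3), beside 56.6%. Replicate 1 had 64.4% (interval 50.9 to 76.4), beside 49.7%, and replicate 2 had 76.3% (interval 63.4 to 86.4), beside 64.2%. In both there were 33 (55.9%, interval 42.4 to 68.8), beside 37.1%. Both main-list intervals included the share of all genes. Of the ranked-list intervals, all but that of replicate 2 lay above it, and this difference was not tested. Highest was gro, with 245.1 in the pool, 106.2 in replicate 1 and 142.0 in replicate 2. It was followed by dlg1, a cell polarity gene, at 160.3, AP-2alpha, an endocytic adaptor gene that acts with numb, at 147.1, and par-6, of the apical polarity complex, at 139.0. Next were aph-1, a subunit gene of the gamma-secretase that cleaves Notch, at 138.2, and rumi, which glycosylates Notch, at 94.6. The other 5 with a promoter summit were skd, aPKC, aurA, nes and O-fut1, and scrib, grh, baz and l(2)gl had gene body summits only.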

How the data were processed

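Taf1-eGFP was mapped by ChIP-seq in 2 replicates of whole embryos. The authors deposited 8 peak lists on dm6, per the labels: a thresholded and a ranked list for each replicate, and 2 of each for the pool. The sources used here do not name the aligner or the peak caller. Control libraries were not used. Signal values are those the authors deposited, on an unstated scale, and served for description and ranking within a list and for the replicate ratio. The ranked lists hold the deposited −log10 of the global IDR, capped at 5.0; 87 of 2745 pooled ranked peaks at a global IDR of 0.01 or less were not in the thresholded list, and 0 of the 40 members had one at the promoter. In the pooled ranked lists 4 columns of per-sample values were not used, since no name ties them to a replicate.

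The summit is the deposited start plus the deposited offset. Only peaks on chromosome arms were kept. Start sites came from Ensembl release 115 (39 members matched by symbol, Dl as Delta) and sequence from the RefSeq release 6 assembly. Shares have exact Clopper-Pearson intervals, and no test was made, since there is 1 group and genes of a chosen list are not replicates. Members and lists were chosen with earlier results of these data known. All members are accounted for: those with a thresholded summit in full, the others by ranked signal, and at most 6 of the wider list by signal. The counting was tested on simulated peaks. Alternatives were the conservative list, each replicate alone, the upper part of peaks by signal, windows of 250 and 1000 bp, other overlap and start-site rules, and, chosen after seeing the data, the nearest start site of any gene. Python 3.11.15, numpy 2.4.6, pandas 2.3.3, scipy 1.17.1 and matplotlib 3.10.9 were used.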

Additional observations from a re-analysis of the deposited data

How the results depend on the processing

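With each replicate's thresholded list alone, 4 members had a promoter summit, against 7 in the pooled list, and the E(spl) count ran from 0 to 1. The count over all genes ran from 1010 to 1486, against 1850. With the stronger part of peaks, those at or above the median signal, the counts were 3 members and 1075 genes. No E(spl) gene was left (0) with a 250 bp window or with each summit given to its nearest start site of any gene, a rule chosen after seeing the data. Under the other settings the members with a promoter summit numbered 5 to 8, and those with a promoter or gene body summit 7 to 8. With replicate 1 alone the latter count was 6. Members in both ranked replicate lists numbered 14 to 22. These counts were all within 1.5 times. The backgrounds moved too. Over all genes, promoter summits ran from 9.56% (nearest start site of any gene, 6 members) to 15.4% (1000 bp window, 8 members). In both ranked lists they ran from 22.1% (strongest 20000 peaks of each list, 14 members) to 52.9% (1000 bp window, 22 members). With a window of 100 bases at the start site, where fewer bases were searched, CAGCTG was in 0 members (beside 9.6% of all promoters), CANNTG in 10 (25% beside 43.7%), GAGAG in 8 (20% beside 11.9%), Su(H)-type sites in 1 (2.5% beside 2.05%) and Ohler motif 7 in 1 (2.5% beside 5.64%). No paired analysis was possible because there is 1 group. With 40 genes and unknown depth, a share can be told from its background only where they differ widely, and absence from a list shows that no peak was called, not that Taf1 was absent.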
